A study of Mus musculus with 24 samples.

Results

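Chil1, Lcn2, Saa3, Serpina3n, A2m and Ptx3 encode secreted proteins of the acute-phase and reactive glia response. These 6 genes, of 55359 in the count table, were selected on their measured values in these same cultures: Chil1 for its rise with ethanol, and Saa3, A2m and Ptx3 to be set against it. Each of the 6 symbols matched 1 gene of the table. The cells were immature oligodendrocytes taken from the cortex of C57Bl6J mouse pups of postnatal days 5 to 7 with magnetic beads against O4, a surface antigen of that stage. They were differentiated for 3 days, mainly with the thyroid hormone T3, and then kept for a further 3 days with or without ethanol. Experiment 1, labelled batch 1, had 6 control wells without ethanol and 6 wells at 30 mM, and experiment 2, labelled batch 2, had 6 control wells without ethanol and 6 wells at 10 mM. Dose, experiment and batch therefore cannot be told apart. Control plates stood in an incubator of their own, and the effects of ethanol and of the incubator cannot be told apart within an experiment. The labels give no treatment beyond ethanol. They call the wells biological replicates but do not say whether wells of a group came from separate animals or cultures. All p-values measure the spread between wells, which may be technical.

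The acute-phase response is a change in the set of proteins that cells secrete after infection, injury or inflammatory cytokines. It is classically described in the liver, where interleukin-6 acting through gp130 and STAT3, and interleukin-1 acting through NF-kB and C/EBP factors, raise the transcription of such genes. In the brain the same proteins are known mainly from astrocytes and microglia, and Serpina3n also from oligodendrocytes in injury and disease models. Chil1 encodes a chitinase-like lectin, the mouse relative of the human protein YKL-40. Lcn2 encodes lipocalin 2, which binds bacterial siderophores and so withholds iron. Saa3 encodes a serum amyloid A apolipoprotein, Serpina3n a serine protease inhibitor, A2m the protease trap alpha-2-macroglobulin, and Ptx3 the long pentraxin of innate immunity.

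RefSeq promoter sequence was at hand for 5 of the 6 genes; the table used here had no entry for A2m. The 250 bases before the start of 4 of them are shown because Chil1 and Serpina3n had the most similar profiles over the wells, and Lcn2 and Saa3 moved in opposite directions at 30 mM. Coordinates are on GRCm38.p6, and each sequence reads 5′ to 3′ on the strand of its gene. Capitals mark a match to 1 of 3 motifs searched on both strands: the NF-kB consensus, the C/EBP motif TTGCNNAA and the STAT motif TTCNNNGAA.
Chil1, chr1:134181906-134182155, plus strand: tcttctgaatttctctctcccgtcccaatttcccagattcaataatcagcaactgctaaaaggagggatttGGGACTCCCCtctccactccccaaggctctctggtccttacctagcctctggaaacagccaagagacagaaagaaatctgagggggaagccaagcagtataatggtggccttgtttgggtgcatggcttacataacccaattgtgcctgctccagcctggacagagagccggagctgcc
Serpina3n, chr12:104406458-104406707, plus strand: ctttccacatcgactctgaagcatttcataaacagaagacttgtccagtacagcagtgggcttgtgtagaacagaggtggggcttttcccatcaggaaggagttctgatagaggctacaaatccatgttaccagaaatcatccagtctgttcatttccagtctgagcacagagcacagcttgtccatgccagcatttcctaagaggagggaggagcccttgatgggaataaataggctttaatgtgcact
Lcn2, chr2:32387740-32387989, minus strand: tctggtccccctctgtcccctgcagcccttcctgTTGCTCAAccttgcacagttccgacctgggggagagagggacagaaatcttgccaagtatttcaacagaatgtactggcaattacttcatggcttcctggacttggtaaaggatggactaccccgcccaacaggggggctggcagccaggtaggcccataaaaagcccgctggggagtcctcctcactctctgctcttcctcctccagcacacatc
Saa3, chr7:46715677-46715926, minus strand: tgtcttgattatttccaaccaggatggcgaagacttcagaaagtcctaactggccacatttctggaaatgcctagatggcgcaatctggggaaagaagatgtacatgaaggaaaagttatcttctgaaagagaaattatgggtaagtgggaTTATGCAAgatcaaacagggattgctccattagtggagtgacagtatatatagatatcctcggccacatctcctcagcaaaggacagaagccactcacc
The Chil1 window held an NF-kB match that begins 179 bases before the start and reads on both strands. The Lcn2 window held a C/EBP match that begins 216 bases before the start, and the Saa3 window a C/EBP match on the opposite strand 99 bases before it. The Ptx3 window, not shown, held a C/EBP match 57 bases before the start. No match to any of the 3 motifs was found in the Serpina3n window, and none to the STAT motif in any of the 5. No 2 matches overlapped. Among 32851 promoter windows of the same length, 7.25% held the NF-kB consensus, 9.56% the C/EBP motif and 7.02% the STAT motif. These matches describe letters in a window and do not show a bound factor.

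Levels are given in CPM, the counts scaled to the TMM-adjusted library size of their well, as lowest, median and highest of the 6 wells of a group. Counts come from the 3′ end of transcripts and were not divided by length, so levels are compared between groups and not between genes. The total count per well ran from 1184609 to 1817028, at which 3 counts, taken as the floor, are worth 1.65 to 2.53 CPM; this covers counting error only. The 6 genes lay above the floor in all 24 wells and passed the filter on low counts in each fit. The 10 oligodendrocyte markers were all detected in each group, and astrocyte, microglia, choroid plexus and fibroblast or mural cell markers were present too. In such bulk cultures, fewer cells of a type and less RNA per cell cannot be told apart.

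At 30 mM ethanol Chil1 read well above its control level while Saa3 read well below its own, and Lcn2, Serpina3n and A2m read higher by smaller amounts. At 10 mM Chil1, Serpina3n, Lcn2 and Saa3 stayed near their controls, and A2m and Ptx3 read lower. Both ethanol comparisons entered the choice of the 6 genes, so their values are given as a description without a test.

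**Figure D1:**
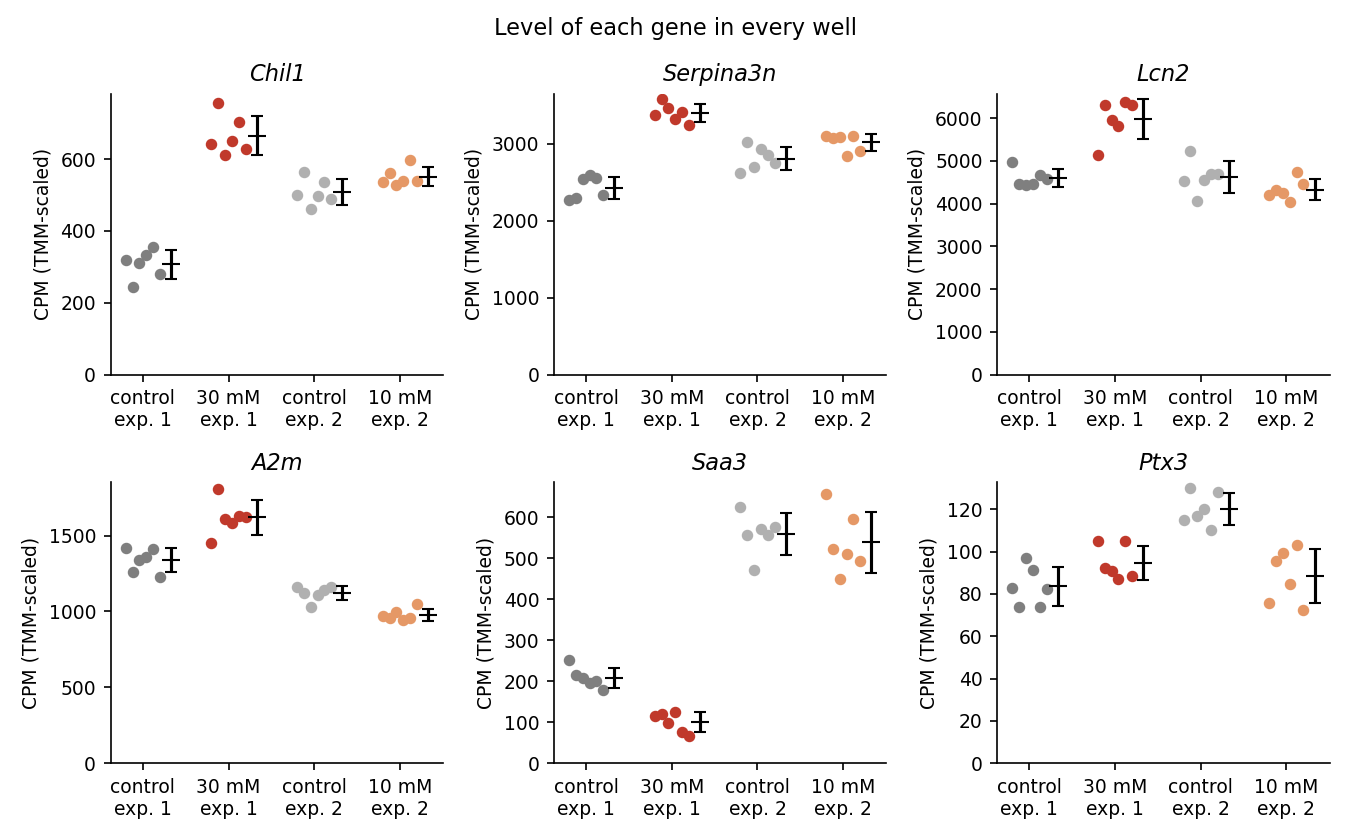
Level of each of the 6 genes in CPM (vertical axes start at 0) in each of the 24 wells, by group; points are wells, and the black dash and bar are the mean and SD of 6 wells. Chil1 at 30 mM lies between 611 and 757 CPM, above its controls, and Saa3 at 30 mM lies between 67.3 and 125 CPM, below its controls.

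Chil1 read 243, 315 and 356 CPM (lowest, median and highest) in the controls of experiment 1 and 611, 646 and 757 CPM at 30 mM. All 6 ethanol wells lay above all 6 controls, and the fitted ratio was 2.17-fold, a log2 fold change of 1.12 (SE 0.0701). In experiment 2 it read 461, 497 and 565 CPM in the controls and 529, 539 and 598 CPM at 10 mM. Those groups overlapped, with a log2 fold change of 0.10 (SE 0.0538). In order of mean level, Chil1 stood at 307 ± 39.9 CPM (SD, n = 6) in the controls of experiment 1, at 508 ± 36.9 in the controls of experiment 2, at 551 ± 25.9 at 10 mM and at 665 ± 54.7 at 30 mM. Only the controls of experiment 2 and the 10 mM wells overlapped among neighbours in that order. The change at 30 mM exceeded the change at 10 mM by 1.00 on the log2 scale (SE 0.0927), but the 2 control groups themselves lay apart, so the changes start from different levels.

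Serpina3n followed Chil1 in direction and in the order of its 4 groups, with smaller steps. It read 2270, 2440 and 2600 CPM in the controls of experiment 1 and 3240, 3390 and 3590 CPM at 30 mM. The wells did not overlap, and the log2 fold change was 0.49 (SE 0.0542). It read 2620, 2810 and 3020 CPM in the controls of experiment 2 and 2840, 3080 and 3100 CPM at 10 mM. Here the wells overlapped, with a log2 fold change of 0.09 (SE 0.0490). Serpina3n belongs to a cluster of near-identical serpin genes, and how the authors' counting split reads among them is not given in the sources used here. Of its listed relatives, Serpina3i averaged between 7.51 and 10.7 CPM per group, and the others averaged at most 1.40 CPM, as Serpina3h did in the controls of experiment 1.

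Lcn2 read 4440, 4520 and 4980 CPM in the controls of experiment 1 and 5130, 6130 and 6370 CPM at 30 mM. The lowest ethanol well stood only just above the highest control, and the log2 fold change was 0.39 (SE 0.0586). In experiment 2 Lcn2 read 4070, 4620 and 5220 CPM in the controls and 4030, 4270 and 4730 CPM at 10 mM. The groups overlapped and the log2 fold change was -0.11 (SE 0.0511). In order of mean level, Lcn2 stood at 4330 ± 243 CPM (SD, n = 6) at 10 mM, at 4600 ± 206 in the controls of experiment 1, at 4620 ± 373 in those of experiment 2 and at 5980 ± 474 at 30 mM, and the wells of each pair of neighbours in that order overlapped. Lcn2 is also a granule protein of neutrophils. The summed level of 10 neutrophil markers was 4.31 to 13.1 CPM over the wells of experiment 1 and 11.7 to 23.5 CPM over those of experiment 2, S100a9 was at 0 in all 24 wells, and none of the 10 passed the low-count filter.

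A2m read higher at 30 mM and lower at 10 mM, each against its own controls. It read 1230, 1350 and 1420 CPM in the controls of experiment 1 and 1450, 1610 and 1810 CPM at 30 mM. The wells did not overlap, and the log2 fold change was 0.28 (SE 0.0575). In experiment 2 A2m read 1030, 1130 and 1160 CPM in the controls and 944, 963 and 1050 CPM at 10 mM. The highest ethanol well lay just inside the control range, and the log2 fold change was -0.21 (SE 0.0493). A2m was lowest at 10 mM and highest at 30 mM of the 4 groups, with means of 979 ± 39.9 and 1620 ± 115 CPM (SD, n = 6).

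Saa3 took the direction opposite to Chil1 at 30 mM. It read 179, 204 and 251 CPM in the controls of experiment 1 and 67.3, 106 and 125 CPM at 30 mM. No well overlapped, and the 30 mM level was 0.489 of the control level, a log2 fold change of -1.03 (SE 0.0987). In experiment 2 it read 470, 565 and 625 CPM in the controls and 448, 517 and 656 CPM at 10 mM. The 10 mM range enclosed the control range, and the log2 fold change was -0.07 (SE 0.0616). Experiment 2 held far more Saa3 in both its groups than experiment 1 did, with means of 559 ± 50.6 CPM in its controls against 208 ± 24.5 in those of experiment 1 (SD, n = 6). The other mouse serum amyloid A genes averaged at most 3.06 CPM, the level of Saa2 in the controls of experiment 1, so little was counted for them.

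Ptx3 was the gene whose wells overlapped at 30 mM and stood apart at 10 mM. It read 73.7, 82.6 and 96.9 CPM in the controls of experiment 1 and 87.1, 91.5 and 105 CPM at 30 mM. These ranges overlapped, with a log2 fold change of 0.19 (SE 0.0886). In experiment 2 it read 110, 118 and 130 CPM in the controls and 72.3, 90.1 and 103 CPM at 10 mM. All 6 ethanol wells lay below all 6 controls, and the log2 fold change was -0.45 (SE 0.0811). Among the 4 groups only the controls of experiment 2, at 120 ± 7.46 CPM (SD, n = 6), stood apart in mean order, and the other 3 groups overlapped with means from 83.5 to 94.7 CPM.

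**Figure D2:**
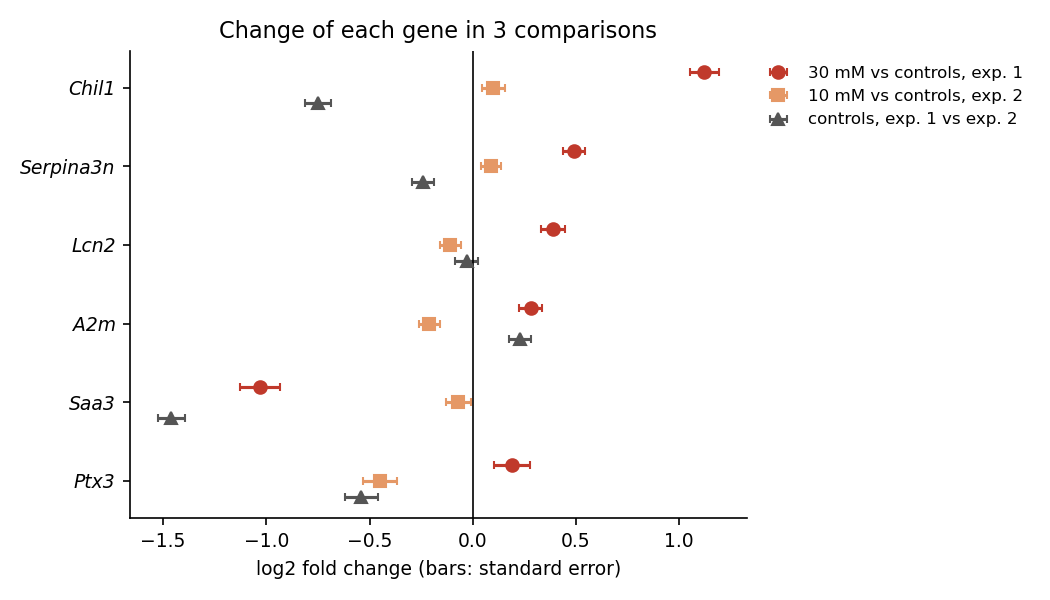
Log2 fold change (horizontal axis) of the 6 genes in 3 comparisons; points are fitted values and bars their standard errors. Chil1 at 1.12 and Saa3 at -1.03 lie at opposite ends at 30 mM, and at 10 mM the lowest value is that of Ptx3 at -0.45.

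Counted over the 6 genes at an adjusted p under 0.05 in the fit of all genes, 4 were higher at 30 mM (Chil1, Lcn2, Serpina3n and A2m) and 1 lower (Saa3), while 3.02% of all 13235 genes tested were higher and 6.65% lower. At 10 mM 0 were higher and 2 lower (A2m and Ptx3), where 0.391% of 13538 genes tested were higher and 0.266% lower. For the change at 30 mM minus that at 10 mM, 5 were higher and Saa3 lower, where 0.880% of 14655 genes were higher and 2.40% lower. Ethanol and control wells did not overlap for 5 of the 6 at 30 mM and for Ptx3 at 10 mM, against 4.10% and 0.813% of genes tested. Since the genes were chosen with these comparisons known, nothing is read from these counts. The median log2 fold change of the 6 was 0.33 at 30 mM and -0.09 at 10 mM, with 0.023 and -0.0023 over all genes.

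The control wells of the experiments, which had no ethanol, were also set side by side. They are the baselines of the ethanol changes known when the genes were chosen, so these values too are a description without a test. Saa3, Chil1, Ptx3 and Serpina3n read lower in the controls of experiment 1 than in those of experiment 2, and A2m read higher. The log2 fold change was -1.46 for Saa3 (SE 0.0640) and -0.75 for Chil1 (SE 0.0624). It was -0.54 for Ptx3 (SE 0.0803) and -0.24 for Serpina3n (SE 0.0529). For each of these 4 genes all 6 wells of experiment 1 lay below all 6 of experiment 2, for Serpina3n by a narrow gap. For A2m the value was 0.23 (SE 0.0524), with all 6 wells of experiment 1 above those of experiment 2. Lcn2 had -0.03 (SE 0.0543), and its wells overlapped. At an adjusted p under 0.05 in the fit of all genes 1 of the 6 was higher and 4 were lower, where 21.3% of 13479 genes tested were higher and 22.3% lower. The wells of these control groups did not overlap for 5 of the 6 and for 18.9% of all genes tested. Nothing is read from these counts. This comparison shares its control wells with both ethanol comparisons; beside it, the log2 fold change at 30 mM was 1.12 for Chil1 and -1.03 for Saa3.

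**Figure D3:**
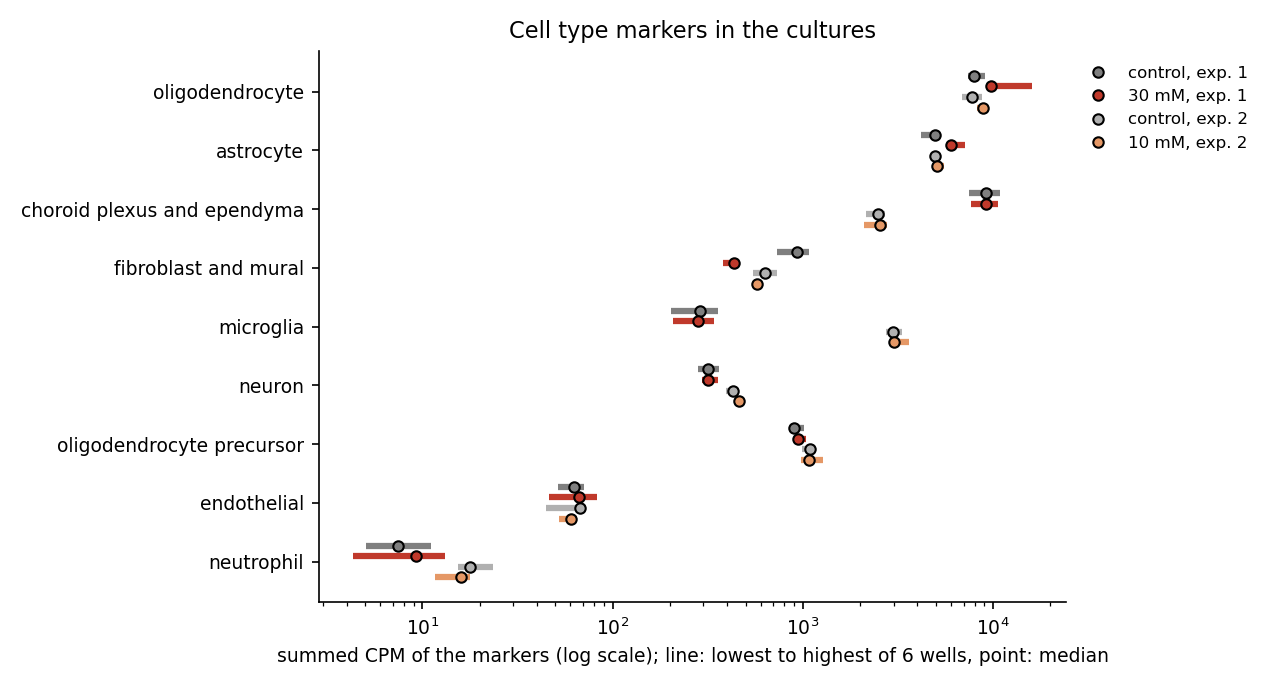
Summed CPM of the markers of 9 cell types (horizontal axis, log scale) in the 4 groups; lines run from the lowest to the highest of 6 wells and points are medians. Microglia markers lie near 2740 to 3600 CPM in experiment 2 and 204 to 360 CPM in experiment 1, and fibroblast and mural markers at 30 mM lie below their controls.

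Cell type markers moved with some of these values. The 12 microglia markers summed to 204 to 360 CPM in the controls of experiment 1 and to 2740 to 3330 CPM in those of experiment 2, and all 10 that were tested were lower in experiment 1, as Saa3, Chil1, Ptx3 and Serpina3n were. The 5 choroid plexus and ependyma markers went the other way, with 7440 to 10900 CPM in the controls of experiment 1 and 2150 to 2710 CPM in those of experiment 2. Also lower in experiment 1 were 5 of 6 oligodendrocyte precursor, 2 of 5 neuron and 2 of 10 oligodendrocyte markers, with none higher. Of all genes tested between these control groups, 22.3% were lower and 21.3% higher. The 9 fibroblast and mural markers were split, with 4 lower and 2 higher, and of 9 astrocyte markers 3 were lower and 5 higher. At 30 mM the 9 fibroblast and mural markers summed to 380 to 447 CPM against 734 to 1080 CPM in the controls, with 6 of 9 tested lower, in the direction of Saa3. At 10 mM they summed to 546 to 606 CPM against 550 to 733 CPM in the controls, with 2 of 8 tested lower in edgeR, in the direction of A2m and Ptx3. That count was 1 in limma voom, 0 in DESeq2 and the joint fit, 0 without 10 mM replicate 2 or control replicate 6, and 1 without 10 mM replicate 4 or 5 or control replicate 1, 2 or 5. The microglia markers summed to 209 to 341 CPM in the same 30 mM wells, inside or near the range of their controls, with 1 of 7 tested higher and 0 lower. The 10 astrocyte markers summed to 5780 to 7120 CPM at 30 mM and to 4170 to 5230 CPM in the controls. Of 9 tested, 5 rose (Gfap, Aqp4, Slc1a2, Gja1 and Aldoc), in the direction of Chil1, Serpina3n, Lcn2 and A2m. At 10 mM 0 of 9 astrocyte markers passed in edgeR, DESeq2 or limma voom (2 at an unadjusted edgeR p under 0.05), with sums of 4840 to 5550 CPM and 4820 to 5110 CPM in the controls. The 10 oligodendrocyte markers summed to 9440 to 16100 CPM at 30 mM (median 9710) and 7390 to 9070 CPM in the controls (median 7970). Of these, 7 of 10 were higher in edgeR and 5 in DESeq2, also in the direction of Chil1, Serpina3n, Lcn2 and A2m. At 10 mM they summed to 8280 to 9160 CPM, and to 6860 to 8740 CPM in the controls of experiment 2, with 2 of 10 higher. None of the markers of these lists was at 0 across a group. The part of any cell type in the values of the 6 genes was not tested.

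The well-by-well profiles were compared after subtracting the mean of the experiment from each log2 CPM, which leaves the ethanol difference in. Chil1 was most like Serpina3n, with Pearson r = 0.95 over 24 wells, then C3 (0.92), Ccng1 (0.91), Slc1a2 (0.91) and Plpp3 (0.89), among 13348 genes compared. C3 encodes the central complement component, and Slc1a2 a glutamate transporter of astrocytes. Serpina3n was most like Chil1 and then C3 (0.94), Ccng1 (0.90), Plpp3 (0.90) and Hist1h2bc (0.89). Lcn2 and A2m formed another pair, at r = 0.84 with each other and at 0.92 and 0.85 with the metallothionein gene Mt1. After Mt1 the genes nearest to Lcn2 were Fth1 (0.87), A2m, Chil1 (0.83) and Serpine2 (0.81). For A2m they were Lcn2, Glul (0.84), Aqp4 (0.81) and Sash1 (0.78). Fth1 encodes the ferritin heavy chain, an iron store, and Glul the glutamine synthetase of astrocytes.

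Saa3 was most like genes that also fell at 30 mM: Hdgf (0.92), Pkm (0.91), Spp1 (0.90), Rack1 (0.89) and Cryab (0.89). Its r with Chil1 was -0.81, which ranked Chil1 at 13344 of the 13348 genes. Ptx3 had no close partner, with the highest values at 0.71 for Dnajc6, 0.68 for Nr1d1, 0.64 for Actl6a and Pkd1 and 0.63 for Sfxn5, and r = 0.26 with Chil1. All these correlations describe wells that share experiment, ethanol group and library depth.

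**Figure D4:**
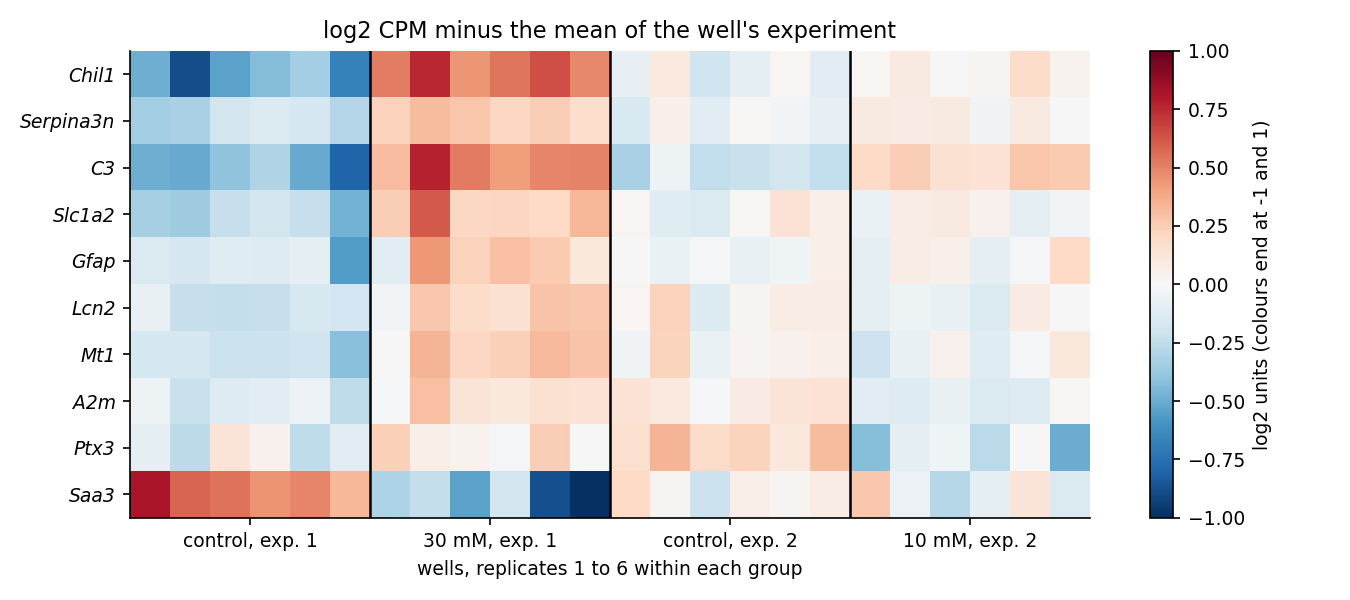
Log2 CPM of the 6 genes and of C3, Slc1a2, Gfap and Mt1 in 24 wells (columns, in 4 groups of 6), each minus the mean of its experiment; red is above and blue below that mean, and colours end at -1 and 1. Chil1, Serpina3n, C3 and Slc1a2 are blue in the controls of experiment 1 and red at 30 mM, and Saa3 is the reverse. Ptx3 differs most in experiment 2, above the mean in the controls and mostly below it at 10 mM.

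When the mean of each group was subtracted instead, only the differences between wells of the same group remained. Chil1 and Serpina3n then stood at r = 0.61, Lcn2 and A2m at 0.61, Chil1 and A2m at 0.59 and Chil1 and Saa3 at 0.18. Many other genes were closer: of the 13348 genes, Serpina3n ranked 59 and A2m 79 for Chil1, and A2m ranked 51 for Lcn2. The negative value between Chil1 and Saa3 was therefore seen between ethanol and control wells of an experiment and not among wells of the same group. Between the control groups both genes read lower in experiment 1. The genes most like each of the 6 within groups were largely others: Sbno2 (0.80), Arsa (0.79), Efs (0.73), Col5a1 (0.73) and Dmrtb1 (0.71) for Chil1, and Cst3 (0.78), Nek6 (0.76), Slc16a1 (0.75), Ppic (0.73) and Ptbp2 (0.72) for Serpina3n. Lcn2 kept Fth1 (0.75) and Mt1 (0.73), followed by Dapk3, Gapdh and Suclg2 (0.71 each). A2m was nearest to Igfbp5 (0.78), Apoe (0.76), Cnn3 (0.76), Gfap (0.76) and Otud6b (0.75). Saa3 was nearest to Lrp10, Prrx1 and Bgn (0.78 each), Gmnn (0.77) and Igfbp4 (0.77). Ptx3 was nearest to Cacng7 (0.72), Mmp2 (0.72), B4galt1 (0.69), Rarg (0.64) and Hectd3 (0.63). By either centring, the genes named as nearest were picked for the highest r among 13348 genes, and no r was tested.

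Genes related by function were counted next, in lists that leave out the 6. Some genes stand on several of these lists and are counted in each, so the counts are not independent. Among them are Cp, Steap4, Osmr, Cd44 and Clcf1. Of 30 acute-phase protein genes, 9 were expressed enough to test and 3 rose at 30 mM. Cp, the copper-carrying ferroxidase ceruloplasmin, rose by 0.34 (log2 fold change, SE 0.0632, edgeR adjusted p = 0.000184), the metallothionein Mt2 by 0.33 (SE 0.0629, edgeR adjusted p = 0.000336) and the metalloreductase Steap4 by 0.51 (SE 0.0970, edgeR adjusted p = 0.000284). None fell, and none of 9 passed at 10 mM in edgeR, with 2 at an unadjusted p under 0.05 and 0 passing in DESeq2 or limma voom. The median of the list was 0.33 at 30 mM and 0.095 at 10 mM. The classical liver markers were scarce: Hp averaged between 5.55 and 7.83 CPM per group and Crp at most 0.477 CPM.

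Of 11 genes known to rise in reactive astrocytes of several kinds, 10 were tested at 30 mM, 7 rose and 1 fell, with a median of 0.30. Over all genes tested at 30 mM, 3.02% were higher and 6.65% lower. The intermediate filament gene Gfap, the defining marker of reactive astrocytes, read 1220, 1640 and 1690 CPM in the controls and 1680, 2140 and 2430 CPM at 30 mM. The lowest 30 mM well lay just under the highest control, and Gfap rose by 0.42 in log2 units (SE 0.0700, edgeR adjusted p = 4.26e-05). S1pr3, a sphingosine 1-phosphate receptor, and Timp1, an inhibitor of matrix metalloproteases, both rose by 0.30 (edgeR adjusted p = 0.00119 and 0.0102), beside Cp, Steap4, Osmr and Cd44. Timp1 did not pass without the low-count filter (edgeR adjusted p = 0.0586). The small heat shock gene Hspb1, named after its value was seen, fell by 0.52 in log2 units (SE 0.159, edgeR adjusted p = 0.0285). The number that fell was 0 without 30 mM replicate 1, 3 or 4 or control replicate 1, and 2 without 30 mM replicate 2; the number that rose was 6 or 7 with any well left out. In DESeq2 none fell, so that Hspb1 did not pass there, whereas 2 genes fell with total counts as scaling, in limma voom, with the replicate block and in the joint fit. Without the low-count filter 5 rose. At 10 mM none of the 10 passed in edgeR, DESeq2 or limma voom (3 at an unadjusted edgeR p under 0.05), with a median of -0.045.

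**Figure D5:**
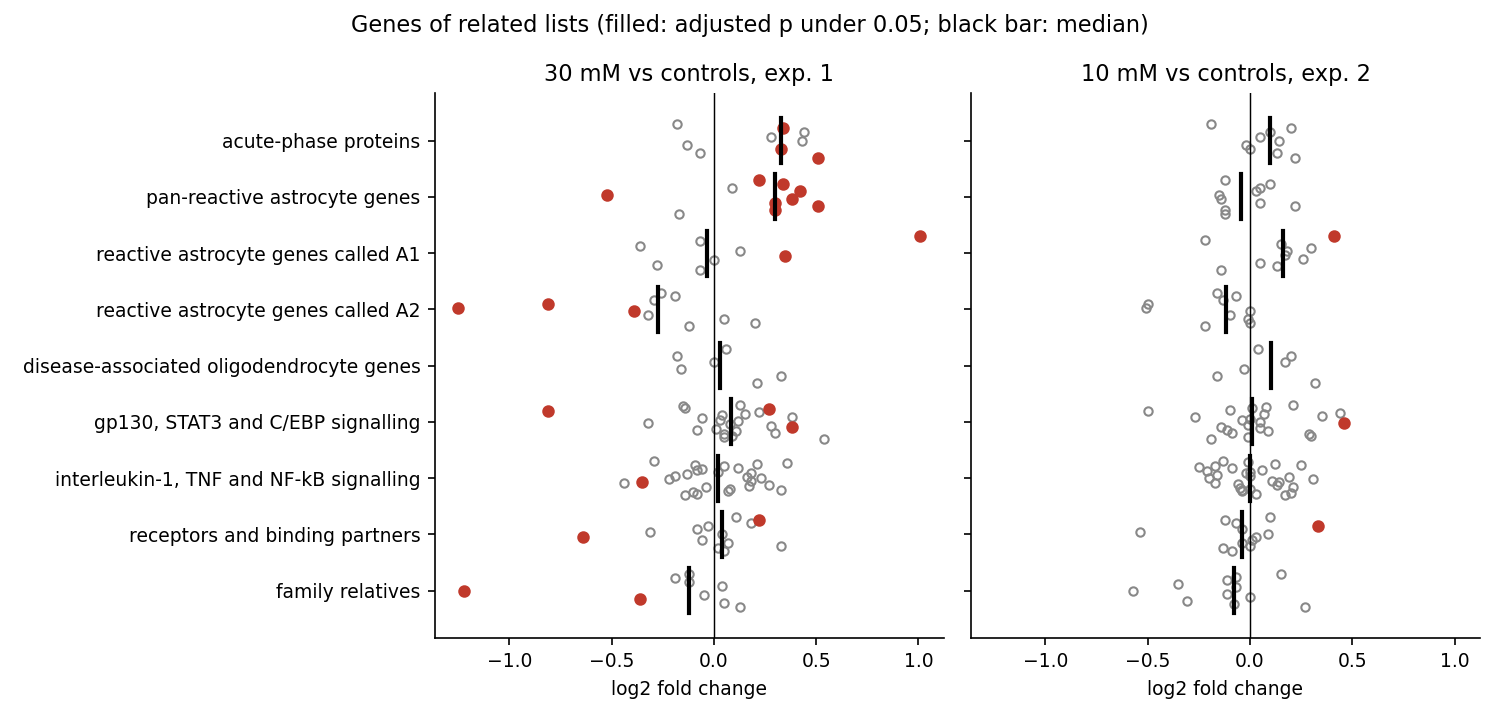
Log2 fold change (horizontal axes) of the tested genes of 9 related lists at 30 mM (left) and 10 mM (right); each point is a gene, filled red at an adjusted p under 0.05, and black bars are list medians. C3, on the A1 list, is the point farthest right at 30 mM, at 1.01, and is also filled at 10 mM, at 0.41.

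The reactive astrocyte genes called A1, described after inflammatory stimulation, and A2, described after ischaemia, were counted separately. At 30 mM, of 8 A1 genes tested 2 rose, and of 10 A2 genes tested 3 fell, with medians of -0.034 and -0.27. C3 read 453, 558 and 639 CPM in the controls of experiment 1 and 976, 1110 and 1340 CPM at 30 mM. The wells stood apart, and C3 rose by 1.01 in log2 units (SE 0.0681, edgeR adjusted p = 5.24e-15). C3 also rose at 10 mM, where Chil1 stayed near its controls: it read 516, 548 and 622 CPM in the controls of experiment 2 and 713, 752 and 783 CPM at 10 mM, a rise of 0.41 in log2 units (SE 0.0520, edgeR adjusted p = 6.2e-08). Those wells stood apart as well, and the change at 30 mM exceeded that at 10 mM by 0.58 (SE 0.0903, edgeR adjusted p = 9.44e-06). Ggta1, a glycosyltransferase gene, rose by 0.35 at 30 mM (SE 0.0916, edgeR adjusted p = 0.00868), a call lost without the low-count filter (edgeR adjusted p = 0.0586). Of the A2 genes, the membrane protein gene Emp1 fell by 1.25, the cytokine gene Clcf1 fell by 0.81 and S100a10, an annexin partner, fell by 0.39 (edgeR adjusted p = 2.4e-06, 0.00404 and 0.000518). At 10 mM C3 was the only A1 gene of 10 tested to pass, and none of 10 A2 genes did in edgeR, DESeq2 or limma voom (3 at an unadjusted edgeR p under 0.05), with medians of 0.16 and -0.11. None of 6 genes of disease-associated oligodendrocytes passed at 30 mM or 10 mM by any of these tools (1 at an unadjusted edgeR p under 0.05 at each dose), with medians of 0.032 and 0.11.

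Genes of the cytokine pathways known to act on these genes were counted next; as given above, 3.02% of all genes tested were higher at 30 mM and 6.65% lower. Among 24 tested genes of gp130, STAT3 and C/EBP signalling, 2 rose and 1 fell at 30 mM. Cebpd, a C/EBP transcription factor of the acute-phase response, rose by 0.27 (SE 0.0634, edgeR adjusted p = 0.00318), which did not pass without the low-count filter (edgeR adjusted p = 0.0609). Osmr, the oncostatin M receptor subunit, rose by 0.38 (SE 0.104, edgeR adjusted p = 0.0119), and without 30 mM replicate 3, which read high, it did not pass (0.30, edgeR adjusted p = 0.0658). The gene that fell was Clcf1. Stat3 itself had a log2 fold change of 0.05 (SE 0.0693), its shared receptor Il6st 0.03 (SE 0.0778), its target and inhibitor Socs3 0.05 (SE 0.108) and Cebpb -0.14 (SE 0.0766), none of which passed. At 10 mM 1 of 23 passed: Junb, an immediate early gene, rose by 0.46 (SE 0.108, edgeR adjusted p = 0.0201). That call was lost in DESeq2, in the joint fit and without 10 mM replicate 4 or 6 or control replicate 1 or 3, with adjusted p from 0.0585 to 0.0708. Socs3 had 0.29 at 10 mM (edgeR adjusted p = 0.201) and passed only without 10 mM replicate 5 (0.38, edgeR adjusted p = 0.0417). Stat3 had -0.01, Il6st 0.00 and Cebpb 0.01. Il6 averaged 5.34 to 7.62 CPM and Lif 3.76 to 6.14 CPM per group.

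Among 27 tested genes of interleukin-1, TNF and NF-kB signalling, none rose at 30 mM and 1 fell, with a median of 0.016. The inhibitor gene Nfkbib fell by 0.35 (SE 0.107, edgeR adjusted p = 0.0317), and the call was lost in DESeq2 (adjusted p = 0.0834) and without any of 30 mM replicates 3, 4 and 6 and control replicates 1, 4 and 5 (edgeR adjusted p up to 0.115). Nfkbia, an inhibitor that NF-kB itself induces, had 0.18 (SE 0.0612, edgeR adjusted p = 0.0577). It passed in DESeq2 (adjusted p = 0.0372), with total counts as scaling (edgeR adjusted p = 0.0235) and without 30 mM replicate 4 (edgeR adjusted p = 0.0489). None of 29 passed at 10 mM in edgeR, DESeq2 or limma voom (2 at an unadjusted edgeR p under 0.05), where Nfkbia had 0.11 (SE 0.0595). Il1b averaged at most 1.12 CPM per group and Tnf at most 3.11 CPM, close to or under the floor.

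Of 13 receptors and partners of the proteins tested at 30 mM, 1 rose and 1 fell, with a median of 0.037. Cd44, a receptor for hyaluronan that is also reported to bind chitinase-like proteins, rose by 0.22 at 30 mM (SE 0.0672, edgeR adjusted p = 0.0271). Its call was lost without the low-count filter (edgeR adjusted p = 0.21) and without any of 30 mM replicates 2 and 4 and control replicates 2, 3 and 6 (edgeR adjusted p from 0.051 to 0.0921). Scarb1, a lipoprotein receptor that also takes up serum amyloid A, fell by 0.64 (SE 0.139, edgeR adjusted p = 0.00135). The lipocalin 2 receptor gene Slc22a17 had 0.07 (SE 0.0729) and the alpha-2-macroglobulin receptor gene Lrp1 had -0.08 (SE 0.0832), and neither passed. At 10 mM 1 of 13 passed: the endoplasmic reticulum chaperone gene Hspa5, whose product also binds alpha-2-macroglobulin at the cell surface, rose by 0.33 (SE 0.0514, edgeR adjusted p = 3.97e-05). Slc22a17 and Lrp1 both had -0.04 there.

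The relatives of the 6 genes by family were mostly near the floor, and of 38 listed, 37 were found in the table and 9 could be tested at 30 mM. None rose and 2 fell, with a median of -0.12. The lipocalin gene Ptgds, which encodes prostaglandin D2 synthase, fell by 0.36 (SE 0.0978, edgeR adjusted p = 0.0123), while its relative Lcn2 read higher. The Ptgds call was lost in DESeq2 (adjusted p = 0.196) and without 30 mM replicate 5 or 6 or control replicate 5 (edgeR adjusted p from 0.0527 to 0.063). Nptx2, a neuronal pentraxin and relative of Ptx3, read 8.09, 11.2 and 15.9 CPM in the controls and 2.22, 5.10 and 6.78 CPM at 30 mM. Its wells stood apart on low counts of at most 23, and it fell by 1.22 in log2 units (SE 0.285, edgeR adjusted p = 0.00319). In DESeq2 none of the 9 relatives passed at 30 mM, so Nptx2 did not pass there either. The chitinase-like genes Chil3 and Chil4 averaged at most 0.265 CPM, and Chil6 between 6.89 and 11.9 CPM per group, so Chil1 was the chitinase-like gene with a level well above the floor. None of 11 relatives passed at 10 mM by the 3 tools (2 at an unadjusted edgeR p under 0.05), with a median of -0.084.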

How the data were processed

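Raw gene counts of 24 wells were analysed as the authors deposited them. Per the submitters' processing notes, cutadapt 1.18, STAR and the build GRCm39 were used; the counter, annotation release, use of strand and removal of PCR duplicates are not given in the sources used here. Per the labels' protocols, libraries were 3′ TagSeq, read single-end at 100 bases. Symbols were matched by identifier for 52083 genes, and 3276 had none. No pair of wells of a group was identical or within sampling noise (60 pairs, chi-square per degree of freedom 1.07 to 2.88).

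Counts were tested with edgeR 4.0.16 (R 4.3.3): TMM, filterByExpr with a minimum count of 10, the quasi-likelihood test and Benjamini-Hochberg adjustment over all genes tested, threshold 0.05. Fits were made of 30 mM and of 10 mM against the controls of the same experiment, of the difference of these changes over all 24 wells, and of the control groups against each other. SE is that of the log2 fold change, taken as its absolute value divided by the square root of the quasi-likelihood F statistic. Correlations used log2 CPM with a prior count of 2. The test was tested on simulated data. Alternatives were DESeq2 1.42.0, limma voom 3.58.1, other scaling, no low-count filter, a joint fit, a replicate block and leaving out each well.

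The 6 genes and the lists were chosen with earlier results of these data known. Named besides them were genes of each list called in an ethanol comparison with a mean log2 CPM of at least 3 (up to 6 per list and comparison, smallest p first), 11 pathway genes in any case, and the 5 genes most like each of the 6. Promoters came from RefSeq on GRCm38.p6, and gene coordinates on GRCm39 were not used here.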

Additional observations from a re-analysis of the deposited data

Results flagged for a closer look

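Among 148 series of 6 wells from 1 group, 13 held a well far from the other 5, where chance alone gives about 7.4, and 0 of these were wells of the 6 genes. At 30 mM, replicate 2 was high for Aqp4 (859 CPM, next well 696), Slc1a2 (722, next 596) and Steap4 (276, next 213), all of which rose there, and replicate 3 was high for Osmr (106, next 80.6). In the controls of experiment 1, replicate 6 was low for Gfap (1220 CPM, next 1600), Il6st (104, next 136) and Ptgds (282, next 425), replicate 5 was low for Emp1 (18, next 30) and replicate 4 high for Slc22a17 (267, next 223). At 10 mM, replicate 6 was high for Il6st (134 CPM, next 108) and replicate 4 for Osmr (56.7, next 46.2). In the controls of experiment 2, replicate 3 was high for Socs3 (73.5 CPM, next 63.9) and replicate 1 low for Steap4 (53.5, next 74.1).

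The change at 30 mM minus the change at 10 mM, on the log2 scale, differed from 0 in the joint edgeR fit for 20 of the genes described. Dose, experiment and batch cannot be told apart in it. For the 6 genes, chosen with this contrast known, it is a description: 1.00 for Chil1, 0.63 for Ptx3, 0.48 for Lcn2, 0.48 for A2m, 0.39 for Serpina3n and -0.97 for Saa3. Among the other genes it was 0.61 for Slc1a2, 0.60 for Aqp4, 0.58 for C3, 0.51 for Osmr, 0.48 for Gja1, 0.41 for Timp1, 0.37 for Gfap, 0.36 for Cebpd, 0.33 for Cd44 and 0.31 for Mt2. It was -0.68 for Scarb1, -0.50 for Nfkbib, -0.40 for S100a10 and -0.37 for Hspa5. Leaving out 1 well ended the call for Mt2 and Osmr (15 of 24 wells each), Nfkbib (13), Cd44 (11), S100a10 (9), Scarb1 (5) and Timp1 (2). Without the low-count filter the call also ended for Gfap (adjusted p = 0.0852), Timp1 (0.111), Osmr (0.13), Cebpd (0.142), Cd44 (0.208), Mt2 (0.233) and Nfkbib (0.0506).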

How the results depend on the processing

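The log2 fold changes of the 6 genes moved by less than the spread between wells in all alternatives run for the ethanol comparisons and kept their direction between the control groups, except that of Lcn2, which ran from -0.09 to 0.02. At 30 mM they ran, with 1 well left out, from 1.06 to 1.16 for Chil1 and from -1.10 to -0.94 for Saa3. The number of genes called depended more on the setting. At 10 mM the genes higher numbered 29 in DESeq2, 16 in the joint fit and 26 to 62 with 1 well left out (fewest without control replicate 5), and the genes lower numbered 11 without the low-count filter, 10 in DESeq2, 5 in the joint fit and 9 to 38 with 1 well left out (fewest without 10 mM replicate 2). For the difference between doses, genes higher numbered 64 without the filter, 66 in DESeq2 and 68 to 216 with 1 well left out, and genes lower 250 to 544; the extremes came without control replicate 4 of experiment 1 and 30 mM replicates 1, 6 and 2. The causes were not tested. Other scalings shifted the median of all genes by -0.057 to 0.024. Whether wells that share a replicate number were paired is not given in the labels. The deviations of such wells correlated at -0.168 to 0.233 at 30 mM, with 1 of 6 pairs over 0.1. At 10 mM they correlated at -0.0382 to 0.036. They correlated best with their own number in 1 of 6 at 30 mM and 0 of 6 at 10 mM. With the replicate block, 365 genes were higher and 843 lower at 30 mM, and 41 and 27 at 10 mM. In the difference, the block ended the call of Nfkbib (adjusted p = 0.0501) and made one of Ptgds (0.0247). Depth limits the relatives and cytokines near the floor.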
